A study of Mus musculus with 52 samples.

Results

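The 9 genes described here encode linker histones (H1f0, H1fx and Hist1h1c) and replacement core histones (H2afx, H2afz, H2afv, H2afy, H3f3a and H3f3b). They were taken by symbol from a table of 15692 genes counted in the frontal cortex of 52 mice. All 9 were present and all 9 passed the filter on low counts that left 15195 genes for testing. The set was chosen by gene class and by measured values: H1f0 and H1fx were picked for counts that tended to be lower on a high-fat diet in these same libraries. The diet difference of every member is therefore given as a description, without a test.

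Core histones form the spool around which DNA is wound, and linker histones bind where the DNA enters and leaves it and favour compaction. Most histone genes are transcribed during DNA replication and yield mRNAs without a poly(A) tail. Replacement histones are made from polyadenylated mRNAs throughout the cell cycle, so that neurons and other nondividing cells use them to renew chromatin. H1f0 encodes H1.0, a linker histone that accumulates in differentiated cells. H1fx encodes the divergent linker histone H1.10, and Hist1h1c encodes H1.2, a subtype of the main histone cluster that also yields polyadenylated mRNA.

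Of the core histones, H2afx encodes H2A.X, which is phosphorylated around DNA breaks. H2afz and H2afv encode the 2 forms of H2A.Z, a variant placed next to transcription start sites. H2afy encodes macroH2A1, a variant with a large extra domain that is enriched on the inactive X chromosome. H3f3a and H3f3b encode the same protein, H3.3, which replaces H3 at transcribed genes and is the main form of H3 in mature neurons.

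Every mouse carried the APP/PS1ΔE9 transgenes, which drive amyloid plaque formation, on a background homozygous for human APOE3 or APOE4 placed at the mouse locus. No group lacked the transgenes, and mouse genes alone were counted, so the counts do not check the APOE label. The labels name the strains APP/E3 and APP/E4. Mice of either sex were given normal diet (ND) or a high-fat diet (HFD) in which fat made up 40% of the calories, carbohydrate 42.6% and protein 16.8%. By the labels, feeding began when mice averaged 3.5 months and went on for 3 months, and behaviour was tested when they averaged 14.7 months. Neither the diet between those times nor the age at tissue collection is stated there. The groups were APP/E3 ND female (n = 7), APP/E3 HFD female (n = 8), APP/E3 ND male (n = 6), APP/E3 HFD male (n = 6), APP/E4 ND female (n = 7), APP/E4 HFD female (n = 7), APP/E4 ND male (n = 6) and APP/E4 HFD male (n = 5). Each library came from 1 mouse, so p-values measure the spread between mice. In pieces of tissue, fewer cells of a type and less mRNA per cell cannot be told apart.

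Total counts lay between 5.34 and 13.1 M per library except for APP/E3 ND male 5 with 39.4 M. All 10 markers of cortical neurons and all 6 markers of astrocytes were detected, with summed levels of 5639 to 9086 and 3861 to 6730 CPM (counts scaled to 1 M per library). Olfactory markers reached 1067 CPM in APP/E4 HFD female 4 and at most 402 CPM in the other libraries. Summed striatal markers ran from 170 to 2472 CPM in females (median 844) and from 176 to 2077 CPM in males (median 1247). The libraries were split into 3 read classes, a number set beforehand, by clustering their counts of pseudogenes. This put 33 libraries in class 1, 11 females in class 2 and 8 males in class 3. Classes 2 and 3 hold 1 sex each. Against class 1, class 2 was lower for Hist1h1c by a log2 difference of -0.41 ± 0.12 (SE), for H1fx by -0.27 ± 0.10 and for H2afx by -0.22 ± 0.08, where the median absolute log2 difference of all genes was 0.12. In the all-male class 3, H1f0 differed from class 1 by -0.14 ± 0.05, where that median was 0.066.

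In the GENCODE annotation of genome build GRCm38, Hist1h1c lies in the main histone cluster at chr13:23738808-23740367, H1f0 at chr15:79028450-79030504, H1fx at chr6:87980421-87981637 and H2afx at chr9:44334694-44336077. These 4 genes have a single exon. H2afz at chr3:137864487-137866922 and H2afv at chr11:6427229-6444443 have 5 exons each. H3f3a at chr1:180800832-180813943 and H3f3b at chr11:116021912-116027962 have 4 exons each, and H2afy at chr13:56073619-56136361 has 9.

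How far the mRNAs of paired members differ matters for whether their reads could be told apart. The reading frames of H3f3a and H3f3b have 411 bases, and 95 of them differ, 81 of them at the third position of a codon. They are 76.9% identical, and the longest identical run is 23 bases. The first 90 bases of each, with the bases that differ between the pair in capitals, are:
H3f3a: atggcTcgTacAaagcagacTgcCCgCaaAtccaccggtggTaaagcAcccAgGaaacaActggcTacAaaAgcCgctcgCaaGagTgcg
H3f3b: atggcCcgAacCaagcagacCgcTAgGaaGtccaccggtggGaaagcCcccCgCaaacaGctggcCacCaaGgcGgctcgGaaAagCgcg

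The reading frames of H2afz and H2afv have 387 bases and differ at 81, of which 70 are at the third position of a codon. They are 79.1% identical, with a longest identical run of 14 bases. Their first 90 bases, marked in the same way, are:
H2afz: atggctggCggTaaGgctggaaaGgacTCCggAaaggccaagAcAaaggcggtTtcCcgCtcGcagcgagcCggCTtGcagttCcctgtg
H2afv: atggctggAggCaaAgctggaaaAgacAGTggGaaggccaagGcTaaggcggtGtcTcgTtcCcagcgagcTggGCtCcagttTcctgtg

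Neither pair shares a stretch of 50 bases in its reading frame, so the paired genes do not compete for reads of that length there. Other annotated genes do share such stretches with every member but H2afv. Of the 50-base windows of the H2afz transcript, 30.4% occur in no other annotated gene, and the rest are shared with 4 pseudogenes, Tmcc1 and Gm26623. Of the H3f3a windows, 69.7% are unique, and the others are shared with 38 pseudogenes, the coding genes 4921517D22Rik and Smpd4, and Gm17275. H2afv was unique over 100% of its windows and H3f3b over 89.4%, with 2 pseudogenes and Gm43584 sharing the remainder. H1fx was unique over 86.0% of its windows and shared the rest with Gm5577. H2afx was unique over 90.3%, sharing with 17 coding genes, 3 pseudogenes and 23 other genes. The unique shares of H1f0, Hist1h1c and H2afy were 94.3%, 91.5% and 91.2%. The median over all genes tested was 100%, and 1.96% of genes had a lower unique share than H2afz. The sources used here do not say how reads with several matches were counted. Counts from shared stretches are therefore uncertain, most of all for H2afz and H3f3a.

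Base composition set the linker histones apart from each other. The H1fx transcript is 71.3% G and C, and 0.00708% of the genes tested were higher. H2afx stood at 62.3%, with 1.74% of genes higher, while H1f0 stood at 52.1% and Hist1h1c at 55.1%, against a median of 50.5%. The first 90 bases of the 3 linker histone reading frames are shown with G and C in capitals, since this property is taken up again with the H1fx results below:
H1fx: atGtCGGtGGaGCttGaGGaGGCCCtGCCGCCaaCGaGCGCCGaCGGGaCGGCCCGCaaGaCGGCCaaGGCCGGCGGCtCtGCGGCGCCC
H1f0: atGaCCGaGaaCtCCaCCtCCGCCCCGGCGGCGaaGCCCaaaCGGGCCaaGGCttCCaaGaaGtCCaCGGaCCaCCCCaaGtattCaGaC
Hist1h1c: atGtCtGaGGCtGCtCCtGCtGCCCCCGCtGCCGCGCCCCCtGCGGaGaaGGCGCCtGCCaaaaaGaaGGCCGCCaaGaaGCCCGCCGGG

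G and C made up 75.6% of this stretch in H1fx, 62.2% in H1f0 and 71.1% in Hist1h1c. Over the whole reading frame the shares were 68.8%, 56.6% and 63.5%.

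Per kilobase of transcript, H3f3b and H1f0 had the highest levels of the 9 genes. H3f3b stood at 45.5 ± 5.40 CPM per kilobase (SD, n = 52) and H1f0 at 43.1 ± 4.17, which is within the spread of H3f3b. H2afy followed at 33.1 ± 2.93 CPM per kilobase. These 3 genes were above all others in every library, since the lowest of their values, 27.9 in H2afy, exceeded the highest of the rest, 22.3 in H2afv.

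H2afv stood at 16.9 ± 1.93, H2afx at 13.7 ± 2.18, H1fx at 11.3 ± 2.94 and Hist1h1c at 9.01 ± 2.46 CPM per kilobase. The ranges of these 4 genes overlapped, from 4.82 in Hist1h1c to 22.3 in H2afv, and each differed from its neighbour in this order by less than the sum of their SDs. H3f3a and H2afz were lowest at 2.25 ± 0.43 and 1.20 ± 0.44 CPM per kilobase. Divided by the unique windows of the transcript instead of its length, H2afz came to 4.14 ± 1.52 and H3f3a to 3.29 ± 0.63 CPM per kilobase, which turns their order. H2afz rested on 5 to 60 counts per library, and the other members on at least 28.

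The members also differed in how much they varied between libraries. The coefficient of variation of CPM was 8.87% for H2afy and 9.69% for H1f0, and 26.1% for H1fx, 27.3% for Hist1h1c and 36.7% for H2afz. The remaining 4 genes lay between 11.4% and 19.0%. Mean counts per library were 669 for H2afy and 873 for H1f0, and 185 for H2afx, 135 for H1fx and 138 for Hist1h1c.

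**Figure D1:**
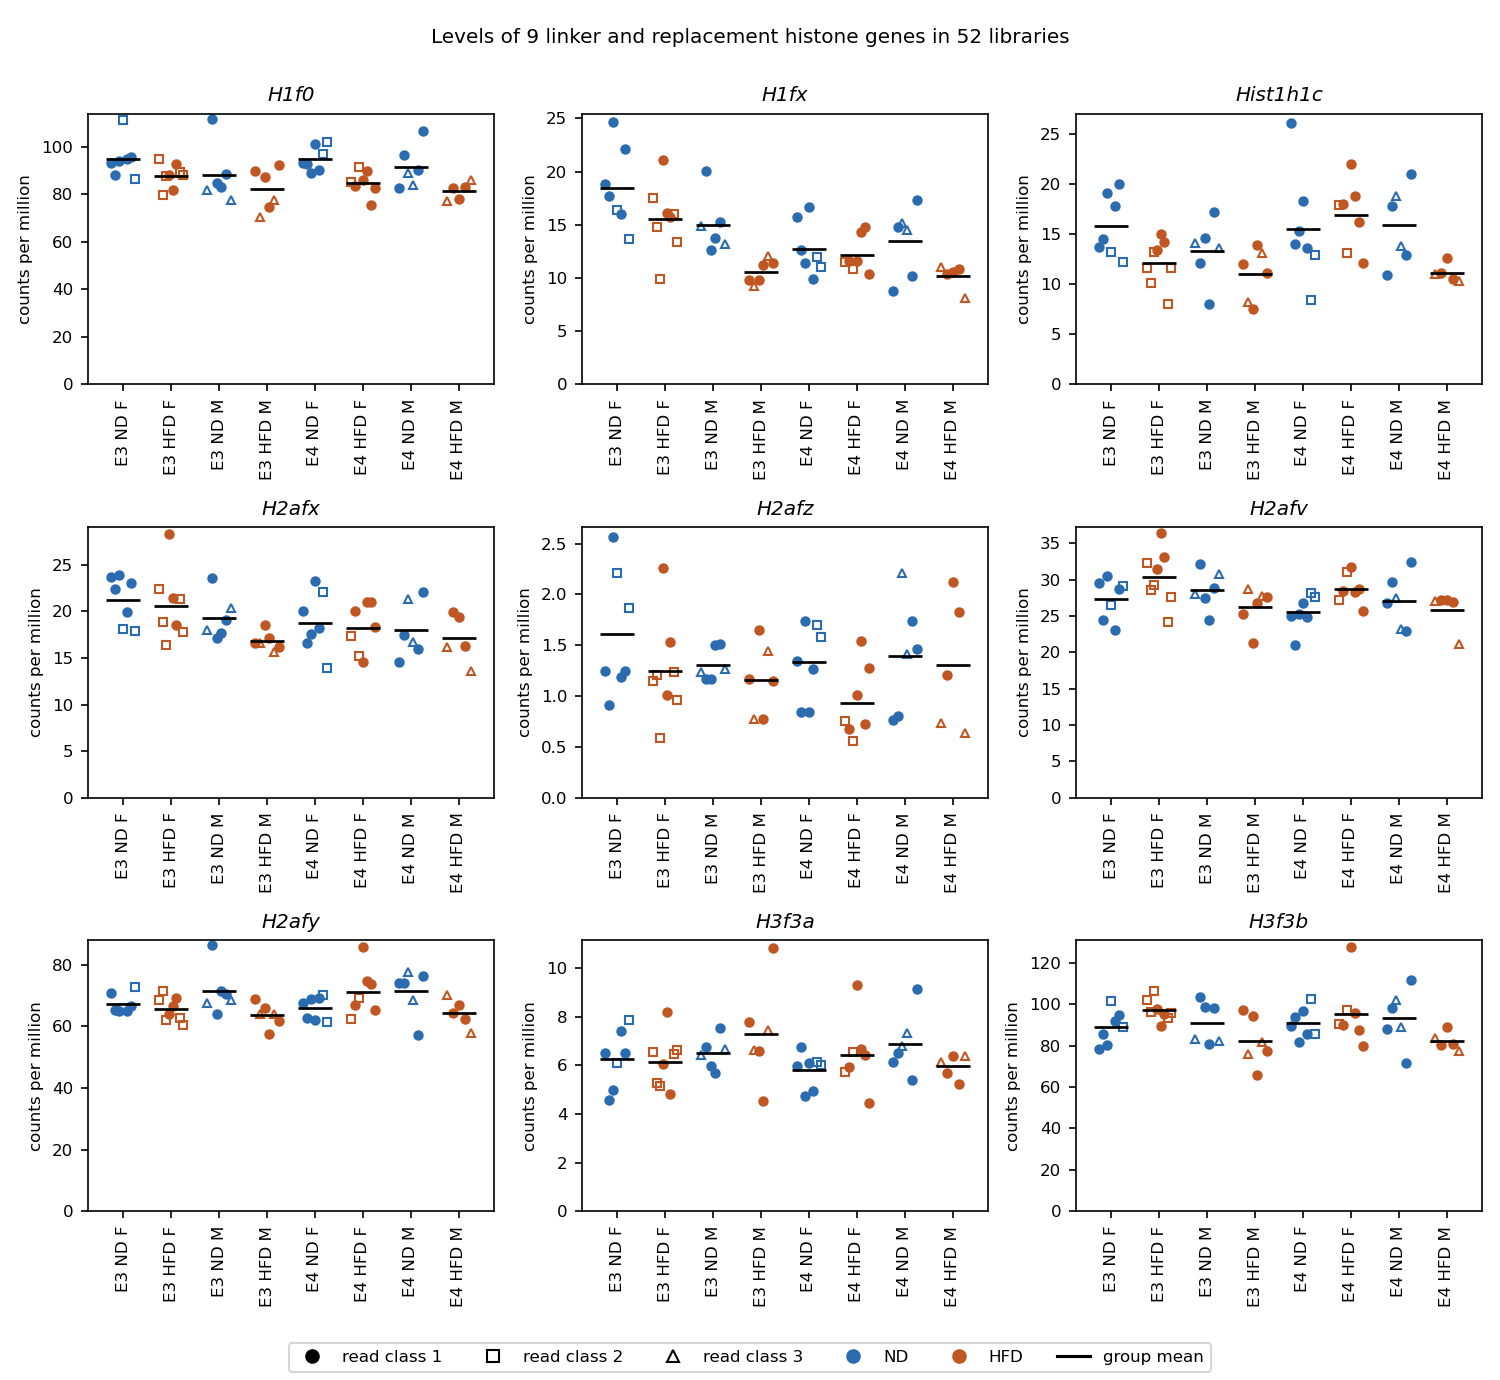
TMM-scaled CPM (y axis, from 0) of the 9 genes in each of the 52 libraries, by genotype, diet and sex (x axis). Blue marks are ND and orange marks HFD, filled circles are read class 1, open squares class 2 and open triangles class 3, and black bars are group means. H1fx is highest in APP/E3 ND females, with a mean of 18.5 CPM, and lowest in the HFD males of both genotypes, at 10.6 and 10.2 CPM.

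APP/E4 libraries were set against APP/E3 libraries, with diets and sexes weighted equally. The APOE allele and any other difference between the strains cannot be told apart in this comparison. H1fx was lower in APP/E4. In the 27 APP/E3 libraries it lay between 9.26 and 24.6 CPM with a median of 14.9, and in the 25 APP/E4 libraries between 8.09 and 17.4 CPM with a median of 11.5. The groups overlapped over most of their range, and values above 17.4 CPM came from APP/E3 alone. The means were 15.1 ± 3.94 CPM (SD, n = 27) and 12.2 ± 2.46 CPM (SD, n = 25), a log2 difference of -0.27 ± 0.07 (SE; edgeR quasi-likelihood test, Benjamini-Hochberg adjusted p = 0.0143).

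H1fx was the 1 member of 9 called, at an adjusted p under 0.05, against 6.79% of all genes tested, of which 515 were called higher and 517 lower. Hist1h1c differed in the other direction without passing, from 13.1 ± 3.17 CPM (SD, n = 27) to 15.1 ± 4.27 CPM (SD, n = 25), a log2 difference of 0.18 ± 0.09 (edgeR adjusted p = 0.255). H2afx gave -0.10 ± 0.06 (edgeR adjusted p = 0.297), H2afv -0.07 ± 0.04 and H2afz -0.12 ± 0.14. The 4 remaining members lay between -0.07 in H3f3a and 0.03 in H2afy. For H1f0 the 95% interval of the difference ran from -0.07 to 0.07, and for H3f3b from -0.07 to 0.10. The median of the 9 genes was -0.07, against a median of -0.00011 for all genes.

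Split by sex, the H1fx difference was -0.44 ± 0.10 in females (edgeR adjusted p = 0.00463) and -0.10 ± 0.11 in males (edgeR adjusted p = 0.868). Among females, the 15 APP/E3 libraries had a median of 16.1 CPM with a range of 9.93 to 24.6, and the 14 APP/E4 libraries a median of 11.6 with a range of 9.90 to 16.6. Among males the median of the 12 APP/E3 libraries was 12.3 CPM, with a range of 9.26 to 20.02, and that of the 11 APP/E4 libraries 10.8 CPM, with a range of 8.09 to 17.4. The difference between the sexes was itself tested and did not pass: the genotype-by-sex interaction of H1fx was -0.34 ± 0.15 (edgeR adjusted p = 0.948). In class 1 alone the APP/E4 difference of H1fx was -0.33 (edgeR adjusted p = 0.0479), and leaving out any 1 of the 52 libraries kept it between -0.29 and -0.25 with adjusted p between 0.00542 and 0.0298. A model term for the GC index, described below, was chosen after the values were seen. With it the call was lost and the difference was -0.09 (edgeR adjusted p = 0.384).

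The 5 genes tested on each side of H1fx on chromosome 6 did not form a block that moved with it. Of these 10, 1 was called, against 6.79% of all genes. It was Eefsec, a selenocysteine elongation factor, at -0.17 (edgeR adjusted p = 0.00563). The nearest gene on each side, Hmces and Gm5577, gave -0.04 and 0.08 without passing. Between the sexes 1 of the 10 was called, against 4.42% of all genes. It was Rab7, a late endosome GTPase, at 0.20 (edgeR adjusted p = 0.0138).

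Setting female against male libraries, with genotypes and diets weighted equally, called 1 of 9 members, again H1fx, against 4.42% of all genes. H1fx lay between 9.90 and 24.6 CPM in 29 females, with a median of 14.8, and between 8.09 and 20.02 CPM in 23 males, with a median of 11.4. The ranges overlapped, with females reaching higher. The means were 14.8 ± 3.74 CPM (SD, n = 29) in females and 12.4 ± 2.94 CPM (SD, n = 23) in males, a log2 difference of 0.25 ± 0.07 (edgeR adjusted p = 0.0361). It stood at 0.42 ± 0.10 within APP/E3 (edgeR adjusted p = 0.0203) and at 0.08 ± 0.11 within APP/E4 (edgeR adjusted p = 0.866), which is the same interaction as above.

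This call depended on single libraries, and with the same model term the difference was 0.07 (edgeR adjusted p = 0.557). In class 1 alone the difference was 0.35 with an edgeR adjusted p of 0.0673. It also missed the threshold, with adjusted p between 0.0501 and 0.0706, when any 1 of 10 libraries was left out: APP/E3 HFD male 2, APP/E3 ND female 3, APP/E3 ND male 6, APP/E4 HFD female 5, APP/E4 HFD female 6, APP/E4 HFD male 5, APP/E4 ND female 1, APP/E4 ND female 4, APP/E4 ND male 1 and APP/E4 ND male 5. The difference itself stayed between 0.23 and 0.28 over all 52 such fits.

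Other members were higher in females without passing. Hist1h1c gave a log2 difference of 0.23 ± 0.09 (edgeR adjusted p = 0.145), H2afx 0.14 ± 0.06 (edgeR adjusted p = 0.152), H3f3b 0.09 ± 0.04 and H1f0 0.08 ± 0.03 (edgeR adjusted p = 0.177). In class 1 alone the differences of H3f3b and H1f0 were smaller, at 0.05 and 0.02. Those of Hist1h1c and H2afx were larger there, at 0.37 and 0.20, without passing (edgeR adjusted p = 0.107 and 0.158). H1f0 passed, at 0.10 with an edgeR adjusted p of 0.0382, when APP/E3 ND male 2 was left out, the library with its highest level in males. H2afy, whose product is enriched on the inactive X chromosome, was at 67.5 ± 5.20 CPM (SD, n = 29) in females and 67.8 ± 7.0 CPM (SD, n = 23) in males, and the 95% interval of its log2 difference ran from -0.07 to 0.06. Without adjustment, 5 of the 9 members had a p under 0.05 in this comparison, against 18.9% of all genes.

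**Figure D2:**
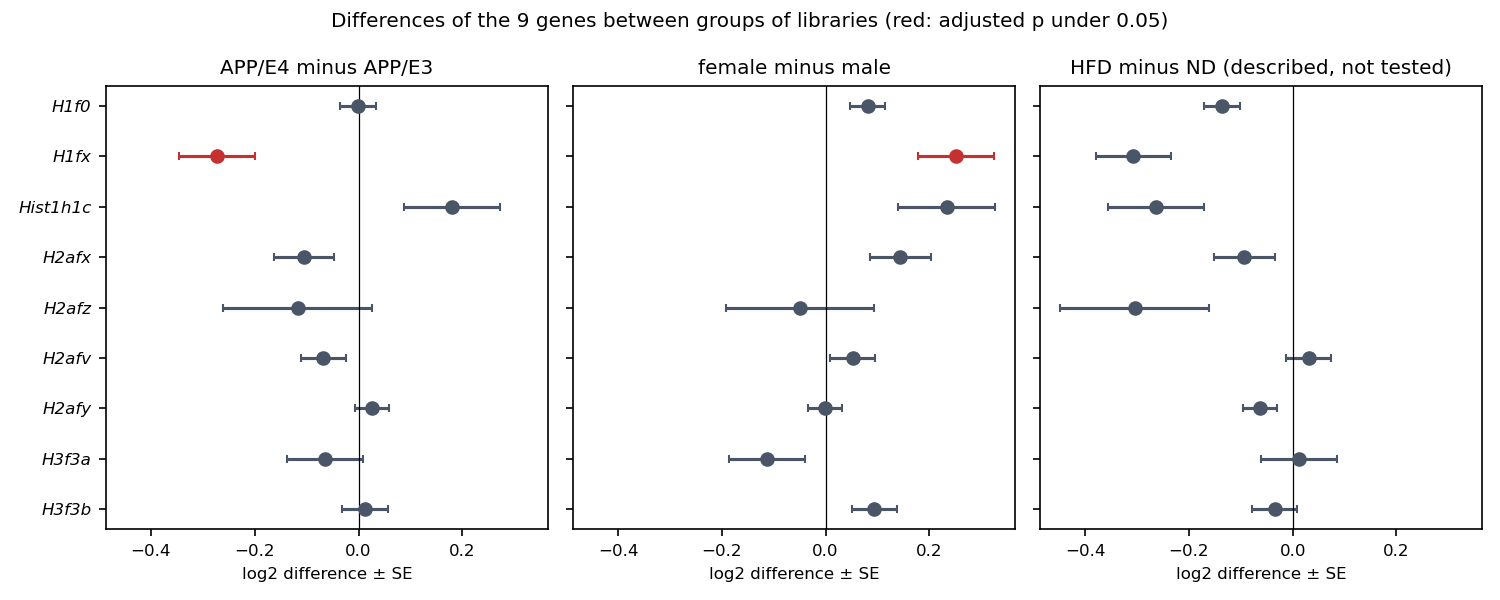
Log2 differences (x axis, with SE as bars) of the 9 genes (y axis) for APP/E4 minus APP/E3, female minus male and HFD minus ND. Red marks passed an adjusted p of 0.05, which H1fx did in the first 2 panels, and the diet panel is described without a test.

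The level of H1fx varied with the level of genes whose transcripts are rich in G and C. The base composition of the reads themselves was not measured. A GC index was computed for each library as the mean log2 CPM of 1413 genes with the highest share of G and C in their transcripts, 58.5% or more, minus that of 1412 genes with the lowest, 42.0% or less. Both H1fx and H2afx are among the 1413, and H3f3b, at 41.2%, is among the 1412. Within class 1, with group means removed, H1fx correlated with the index at r = 0.81 (permutation p = 5e-05, adjusted over 9 genes 0.000225) and rho = 0.75 (permutation p = 0.00015, adjusted 0.000675) over 33 libraries. Without the 2 libraries farthest from the median index, r was 0.75.

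H2afx behaved alike, with r = 0.78 (permutation p = 1e-05, adjusted 9e-05, where 1e-05 is the smallest p that the permutations can give) and rho = 0.76 (permutation p = 3e-05, adjusted 0.00027), and r = 0.79 without the 2 libraries. The other 7 members had lower values of r, between 0.17 and 0.48. Of these, H1f0 (r = 0.47, rho = 0.41) and H2afv (r = 0.48, rho = 0.44) passed by r with the same adjusted permutation p of 0.0454, but not by rho, with adjusted permutation p of 0.0828 for H1f0 and 0.0653 for H2afv. Without the 2 libraries their r was 0.38 and 0.45.

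The index also differed between the groups compared. Its mean was -0.039 ± 0.164 (SD, n = 27) in APP/E3 and -0.175 ± 0.181 (SD, n = 25) in APP/E4, -0.049 ± 0.173 in females and -0.174 ± 0.176 in males, and -0.070 ± 0.201 in ND and -0.139 ± 0.162 in HFD libraries. Of the 1413 genes, 1115 were lower in APP/E4, 1117 were higher in females and 1053 were lower on HFD. With the index as a term of the model, which gave the H1fx values above, no member was called in either comparison. The APP/E4 difference of H2afx went from -0.10 to 0.04 in that fit.

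**Figure D3:**
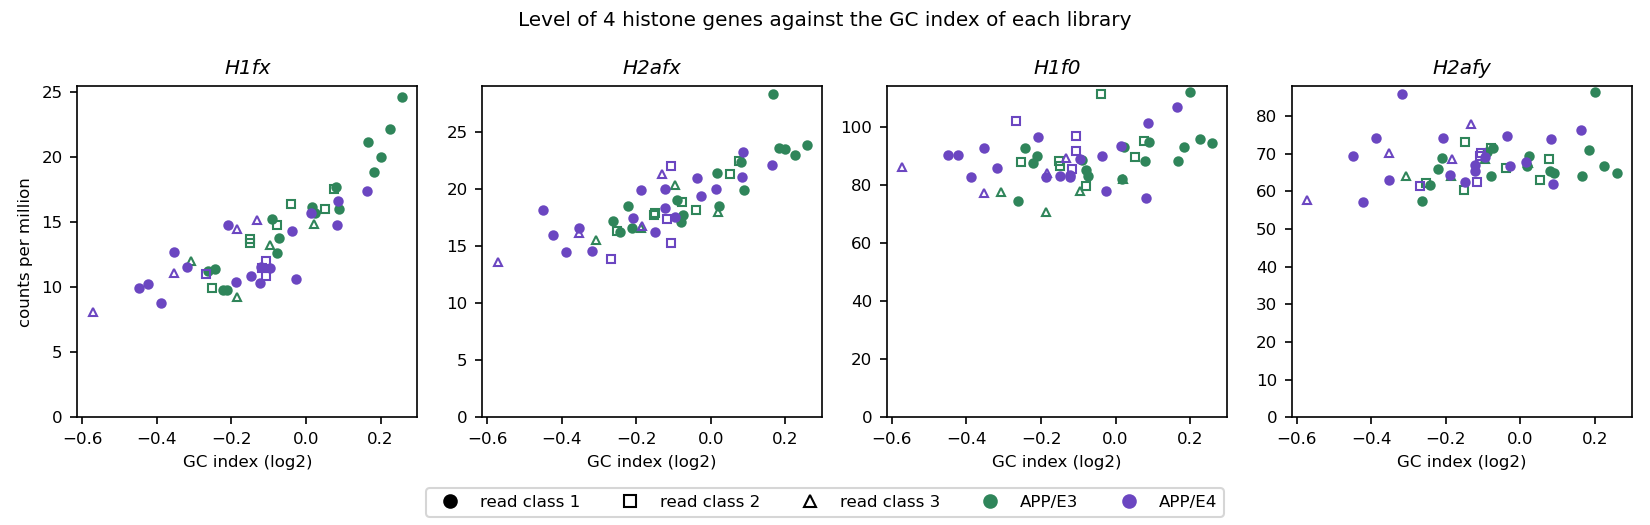
CPM (y axis, from 0) of H1fx, H2afx, H1f0 and H2afy against the GC index of each of the 52 libraries (x axis, log2), with APP/E3 in green and APP/E4 in purple. Filled circles are read class 1, open squares class 2 and open triangles class 3. H1fx climbs from 8.09 CPM at an index of -0.572 to 24.6 CPM at 0.258, while H2afy shows no such course.

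On HFD, 7 of the 9 genes were lower and 2 higher, and no gene of the table was called for diet (0%). H1f0 lay between 77.8 and 112 CPM with a median of 91.4 in 26 ND libraries, and between 70.6 and 95.1 CPM with a median of 85.6 in 26 HFD libraries. H1fx lay between 8.80 and 24.6 CPM with a median of 14.8 on ND and between 8.09 and 21.1 CPM with a median of 11.4 on HFD. Both genes overlapped between the diets, and both were chosen for this tendency. The log2 difference was -0.14 ± 0.03 for H1f0 and -0.31 ± 0.07 for H1fx.

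Of the members that were not named for their diet difference, H2afz gave -0.30 ± 0.14, Hist1h1c -0.26 ± 0.09, H2afx -0.09 ± 0.06, H2afy -0.06 ± 0.03 and H3f3b -0.04 ± 0.04. H2afv gave 0.03 ± 0.04 and H3f3a 0.01 ± 0.07. The median of all 9 genes was -0.09, and it includes H1f0 and H1fx, which were chosen for lower counts on HFD. It therefore cannot be read as a shift against all genes, whose median was -0.0020, with 48.8% higher on HFD. In class 1 alone the H2afz difference was 0.09, on the other side of 0. In the authors' deposited table, the HFD minus ND coefficients were -0.13 for H1f0, -0.26 for H1fx, -0.35 for H2afz and -0.23 for Hist1h1c. The authors' deposited table gave -0.08 for H2afx, -0.05 for H2afy, -0.02 for H3f3b and 0.05 for H2afv. Its coefficient for H3f3a was -0.01, on the other side of 0 from the value computed here.

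Within genotype and sex, H1f0 was lower on HFD in all 4 strata by similar amounts. The log2 difference was -0.11 ± 0.06 in APP/E3 females, -0.10 ± 0.07 in APP/E3 males, -0.16 ± 0.07 in APP/E4 females and -0.17 ± 0.07 in APP/E4 males. In APP/E4 females the 7 ND libraries lay between 88.9 and 102 CPM (median 93.4) and the 7 HFD libraries between 75.4 and 91.6 CPM (median 85.4), so the diets overlapped only narrowly. In the 5 APP/E4 HFD males H1f0 was at 77.3, 82.7, 77.9, 82.9 and 86.02 CPM, against 82.6 to 107 CPM (median 89.6) in 6 APP/E4 ND males.

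In APP/E3 females H1f0 lay between 86.5 and 111 CPM (median 94.2) on ND and between 79.7 and 95.1 CPM (median 88.3) on HFD. In APP/E3 males it lay between 77.8 and 112 CPM (median 83.9) on ND and between 70.6 and 92.5 CPM (median 82.6) on HFD. The medians differed least in these males, and the value of 112 CPM came from APP/E3 ND male 2.

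H1fx had its larger diet differences in males. Its difference was -0.51 ± 0.15 in APP/E3 males and -0.41 ± 0.16 in APP/E4 males, against -0.24 ± 0.13 in APP/E3 females and -0.07 ± 0.14 in APP/E4 females. The 6 APP/E3 HFD males lay between 9.26 and 12.03 CPM (median 10.5), all below the 6 APP/E3 ND males at 12.6 to 20.02 CPM (median 14.3). The 5 APP/E4 HFD males were at 11.1, 10.4, 10.6, 10.8 and 8.09 CPM, and the 6 APP/E4 ND males between 8.80 and 17.4 CPM (median 14.6).

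In females the diets overlapped widely. H1fx lay between 13.7 and 24.6 CPM (median 17.7) on ND and 9.93 and 21.1 CPM (median 15.8) on HFD in APP/E3, and between 9.90 and 16.6 CPM (median 12.01) on ND and 10.3 and 14.8 CPM (median 11.6) on HFD in APP/E4. The GC index of the groups was lowest in the HFD males, at -0.239 ± 0.043 (SD, n = 6) in APP/E3 and -0.258 ± 0.211 (SD, n = 5) in APP/E4, and highest in APP/E3 ND females at 0.093 ± 0.147 (SD, n = 7). With the index as a term, the diet difference over all strata was -0.18 for H1fx and -0.12 for H1f0.

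Hist1h1c was lower on HFD in 3 of 4 strata, by -0.52 ± 0.20 in APP/E4 males, -0.38 ± 0.17 in APP/E3 females and -0.28 ± 0.19 in APP/E3 males, and gave 0.13 ± 0.17 in APP/E4 females. Those females also held its highest group mean on HFD, 16.9 ± 3.41 CPM (SD, n = 7). Its highest value of all, 26.1 CPM, came from an APP/E4 ND female.

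H3f3b and H2afv had diet differences of opposite sign in the sexes. H3f3b gave 0.13 ± 0.08 in APP/E3 females and 0.07 ± 0.08 in APP/E4 females, against -0.15 ± 0.09 and -0.19 ± 0.10 in APP/E3 and APP/E4 males. H2afv gave 0.15 ± 0.08 and 0.17 ± 0.08 in APP/E3 and APP/E4 females, and -0.12 ± 0.09 and -0.07 ± 0.09 in the males. H2afy gave -0.04 ± 0.06 and 0.11 ± 0.06 in females, and -0.17 ± 0.07 and -0.15 ± 0.07 in males. H3f3a followed no such order, with -0.04 ± 0.14 and 0.15 ± 0.14 in females and 0.16 ± 0.15 and -0.21 ± 0.16 in males.

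**Figure D4:**
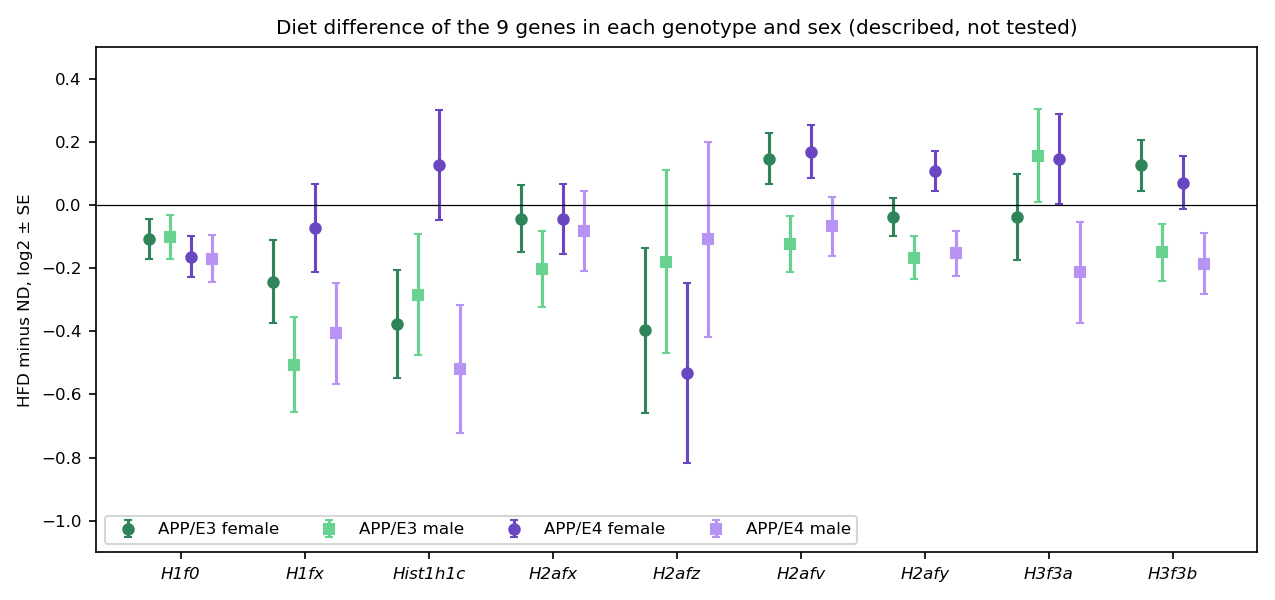
HFD minus ND log2 difference (y axis, with SE as bars) of the 9 genes (x axis) in APP/E3 females, APP/E3 males, APP/E4 females and APP/E4 males. H1f0 sits between -0.17 and -0.10 in all 4, while H2afv and H3f3b are above 0 in females and below 0 in males.

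Whether the diet difference depended on sex was tested with an interaction, positive where females had the higher HFD minus ND difference. The interaction was 0.26 ± 0.09 for H3f3b (unadjusted p = 0.00407 in edgeR), 0.25 ± 0.09 for H2afv (unadjusted p = 0.00514), 0.19 ± 0.07 for H2afy (unadjusted p = 0.0050) and 0.30 ± 0.15 for H1fx (unadjusted p = 0.0465). None passed after adjustment (edgeR adjusted p = 0.600 for H3f3b, H2afv and H2afy, and 0.632 for H1fx). For H1f0 it was -0.00086 ± 0.07, and the 95% interval ran from -0.14 to 0.13.

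In all, 0 of 9 members were called for diet by sex, where 0% of all genes were called by edgeR, and DESeq2 and limma voom also called 0 of 9. Without adjustment 4 of the 9 had a p under 0.05, against 7.84% of all genes. Markers of other cells moved with the same interaction. It was positive for 6 of 6 choroid plexus markers (median 2.27), 6 of 6 olfactory markers (median 0.94) and 8 of 8 microglial markers (median 0.13), and negative for 7 of 7 blood markers (median -2.38), 7 of 7 striatal markers (median -0.24) and 6 of 6 oligodendrocyte markers (median -0.19). No marker was called. Summed choroid plexus markers reached 2577 CPM in 1 library, APP/E3 HFD female 6, and at most 701 CPM in the other libraries and 56.7 CPM in males. Summed olfactory markers ran from 7.87 to 1067 CPM in females and from 22.8 to 402 CPM in males, and summed blood markers from 1.03 to 324 CPM in females and from 1.93 to 95.6 CPM in males. Their part in the interaction of the histone genes was not tested.

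The diet-by-genotype interaction called 0 of 9 members by edgeR, DESeq2 and limma voom (0% of all genes by edgeR), and no member had an unadjusted p under 0.05, against 9.97% of all genes. It ranged from -0.09 ± 0.15 in H3f3a to 0.13 ± 0.15 in H1fx, and was -0.06 ± 0.07 in H1f0. The genotype-by-sex interaction also called 0 of 9 by the 3 tools, where edgeR called 0.00658% of all genes, and H1fx was the 1 member with an unadjusted p under 0.05 (0.0236), against 5.11% of all genes.

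Pairs of members were then compared across libraries within each read class, with group means removed, in a family of 9 tests. In the 33 libraries of class 1, H1f0 and H1fx rose and fell together (r = 0.55, permutation p = 0.00697, adjusted 0.0314, and rho = 0.51, permutation p = 0.00976, adjusted 0.0439). Without the 2 libraries farthest from the median of H1f0, r was 0.56. In the same libraries both genes correlated with the GC index (r = 0.47 for H1f0 and 0.81 for H1fx), whose part in the pair was not tested. The H3.3 genes H3f3a and H3f3b gave r = 0.62 (permutation p = 0.00362, adjusted 0.0314) and rho = 0.55 (permutation p = 0.00513, adjusted 0.0439), and r = 0.66 without the 2 libraries farthest in H3f3a. For scale, the median absolute r with all genes in class 1 was 0.23 for H1f0, 0.24 for H1fx and 0.22 for H3f3b. How many other pairs of genes would pass was not tested.

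The H2A.Z genes H2afz and H2afv did not move together (r = -0.10, permutation p = 0.638, adjusted 0.717, and rho = -0.09, permutation p = 0.677, adjusted 0.762), and r was -0.12 without 2 libraries. In the 11 libraries of class 2 the 3 pairs, in the same order, gave r = 0.32, -0.35 and -0.35 (exact permutation p = 0.375, 0.373 and 0.439, adjusted 0.658 for each). Their rho was 0.43, -0.41 and -0.46 (exact permutation p = 0.363, 0.274 and 0.258, adjusted 0.563 for each), and r without 2 libraries was 0.18, -0.29 and -0.14. None of the 3 passed. In the 8 libraries of class 3 the pairs gave r = 0.0060, -0.22 and 0.38, with exact permutation p of 1, 0.625 and 0.375 (adjusted 1, 0.717 and 0.658). Their rho was -0.21, -0.36 and 0.50, with the same exact permutation p (adjusted 1, 0.762 and 0.563). The smallest p that the permutations allow in class 3 is 0.0625, and r without 2 libraries was 0.93, -0.94 and 0.73, so that this class says nothing firm on the pairs.

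The genes whose levels were most like those of 4 members were found over the 33 libraries of class 1, as a description. H1fx was most like Nat14, a predicted acetyltransferase (r = 0.91), followed by the AP-1 gene Jund (0.81), Ccdc85b (0.80), the chromatin protein gene Hmg20b (0.77) and Rbm42 (0.77). Their transcripts are 54.8% to 67.1% G and C, above the median of all genes. H1f0 was most like Mrpl13, of the mitochondrial ribosome (r = 0.81), followed by Edf1 (0.79), Rpn1 (0.79), Coq7 (0.78) and Cnpy2 (0.77). The transcripts of these genes are 50.9% to 61.1% G and C, also above that median. H2afz reached lower values, with Pip4k2c (0.70), Ier5 (0.69), Tmem114 (0.68), Igfbp4 (0.68) and Cinp (0.67), whose transcripts are 48.4% to 61.2% G and C.

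H3f3b was most like Gcnt1 (r = 0.85), the interneuron transcription factor gene Dlx1 (0.85), Enpp3 (0.84), the calretinin gene Calb2 (0.84) and Sp8 (0.84), a transcription factor gene of olfactory bulb interneurons. APP/E4 HFD female 4, the library with 1067 CPM of olfactory markers, had the highest H3f3b level of all libraries, 128 CPM. Without it the 5 values of r lay between 0.78 and 0.80, and the correlation of H3f3a with H3f3b was 0.53 in place of 0.62. The same library ranked second for H2afy, H3f3a and Hist1h1c, and its H1f0 level ranked 33.

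Genes that handle these histones were counted as lists, in a genotype comparison where edgeR called 6.79% of all genes. Other replacement variants had 5 of 11 genes in the table and 1 was called for genotype: Cenpa, the centromeric H3, went from 1.79 ± 0.59 CPM in APP/E3 to 1.13 ± 0.45 CPM with APP/E4, a log2 difference of -0.66 ± 0.16 (edgeR adjusted p = 0.0062). The H3.3-like gene H3f3c was below 1 CPM, with a mean of 0.626 CPM over APP/E3 libraries and 0.709 CPM over APP/E4 libraries. Of 10 clustered histone genes other than Hist1h1c, 2 were called higher in APP/E4, the linker histone gene Hist1h1e (0.58 ± 0.16, edgeR adjusted p = 0.0155) and the H2B gene Hist1h2be (0.49 ± 0.13, edgeR adjusted p = 0.0156). Hist1h1e shares 50-base windows with Hist1h1c, and its mean level was 1.03 CPM for APP/E3 against 1.64 CPM for APP/E4.

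Among the H2A.Z exchange factors, 1 of 12 was higher and 1 lower in APP/E4. Anp32e, the chaperone that removes H2A.Z, gave 0.13 ± 0.03 (edgeR adjusted p = 0.00455), and Vps72, an H2A.Z-binding subunit of the exchange complexes, -0.18 ± 0.05 (edgeR adjusted p = 0.0213). Of 8 H3.3 chaperones 1 was called, Cabin1 of the HIRA complex (-0.09 ± 0.03, edgeR adjusted p = 0.0421). Of 20 general histone chaperones, Ncl (0.23 ± 0.03) and Set (0.17 ± 0.04) were called higher, and of 12 genes of H2A.X damage signalling the kinase gene Atm (0.15 ± 0.05). By edgeR, 0 of 10 genes for replication histone mRNA processing and 0 of 12 for proliferation were called for genotype, with 2 and 3 at an unadjusted p under 0.05, which 21.3% of all genes had in this comparison. The medians of these 7 lists lay between -0.04 and 0.07, and that of the clustered histone genes was 0.13.

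Between the sexes, H2afj, a replacement H2A, was higher in females (0.33 ± 0.07, edgeR adjusted p = 0.00263). The chaperone genes Npm1 (0.32 ± 0.09) and Ptma (0.27 ± 0.07) were also higher in females and Set lower (-0.17 ± 0.04). Slbp, which binds the stem-loop of replication histone mRNAs, was higher in females (0.17 ± 0.05). By edgeR, 0 genes of H3.3 chaperones, H2A.Z exchange, H2A.X damage signalling, proliferation and the clustered histones were called, against 4.42% of all genes. At an unadjusted p under 0.05 these lists held 1 of 8, 2 of 12, 2 of 12, 1 of 12 and 4 of 10 genes, against 18.9% of all genes.

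Some markers of other cells moved with these comparisons, in which edgeR called 6.79% of all genes for genotype and 4.42% for sex. For genotype, 1 of 6 astrocyte markers (Gfap, 0.35 ± 0.10), 1 of 6 oligodendrocyte markers (Mag, 0.38 ± 0.11) and 2 of 8 microglial markers, Trem2 (0.25 ± 0.07) among them, were called, all higher in APP/E4. The median of the 6 oligodendrocyte markers was 0.28 and that of the 6 olfactory markers 0.26. Gfap did not stand for its list: of the 6 astrocyte markers, 4 had differences below 0 and 2 above, and the list median was -0.04. For sex, 4 of 8 microglial markers and 2 of 6 astrocyte markers were called higher in females, led by Gfap (0.71 ± 0.11), as were 1 of 6 choroid plexus markers and 1 of 10 markers of cortical neurons, and 2 of 7 blood markers were called lower. None of 7 striatal and 6 olfactory markers was called, and all of them were lower in females, with medians of -0.34 and -0.28. The summed level of microglial markers ran from 431 to 671 CPM in APP/E3 and from 435 to 764 CPM in APP/E4 libraries, and from 453 to 764 CPM in females and 431 to 723 CPM in males. No marker of these lists was at 0 in any group. Their part in the H1fx differences was not tested.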

How the data were processed

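Frontal cortex RNA of 52 mice was made into libraries with a reagent set for mRNA from Illumina, per the labels' protocols. The authors deposited 1 table of raw counts of reads for each gene and library. The submitters' processing notes name Subread, featureCounts, limma, edgeR 3.14.0 and the mouse build mm9. The sources used here do not give the annotation, the strand setting or the treatment of reads with several matches. The same deposited table holds the authors' log2 coefficients and unadjusted p-values for diet. The coefficients were set beside the values computed here, and the p-values are not reported. Groups were taken from the labels for genotype, diet and sex. Replicate numbers follow the deposit order.

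Counts were tested with edgeR 4.0.16 in R 4.3.3, with filterByExpr over the 8 groups (497 genes removed), TMM scaling, 1 mean per group and a robust quasi-likelihood test. P-values were adjusted by Benjamini-Hochberg over 15195 genes, and genes with an adjusted p under 0.05 were called. Log2 CPM carry a prior count of 2. CPM are scaled by TMM totals, and 3 counts correspond to 0.0754 to 0.579 CPM, which covers counting error only. The scripts were tested on simulated data. Correlations used log2 CPM with group means removed, and permutations within groups with 100000 resamples or, in classes 2 and 3, every arrangement. Read classes came from clustering the libraries by 311 pseudogenes, with the number of clusters set at 3.

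Transcripts came from GENCODE M21 on GRCm38, used for sequences, positions and shares of G and C, with the longest coding transcript that has a RefSeq match. Of the genes tested, 14116 (92.9%) had one. The reading frame is the longest one in that transcript. The 9 members and the gene lists were chosen with earlier results of these data known. All 9 members were named in each comparison, and from other lists at most 4 called genes with the largest differences. The result of 1 marker gene is not reported here. Neighbours of H1fx and the library APP/E4 HFD female 4 were singled out after values were seen.

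Alternatives were DESeq2 size factors, DESeq2 1.42.0, limma 3.58.1 with voom, no filter, terms for read class and for the style of the library titles, class 1 alone, an additive model, leaving out each library, and, for correlations, total counts and a prior count of 0.5. A term for the GC index was added after seeing the data.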

Additional observations from a re-analysis of the deposited data

Results flagged for a closer look

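Of 72 combinations of member and group, 7 held a library far from the rest of its group by Dixon's criterion, where chance gives about 1 in 20, or 3.6. APP/E3 ND male 2 was the highest of its 6 libraries for 3 members: H1f0 at 112 CPM with the nearest at 88.5, H1fx at 20.02 CPM with the nearest at 15.3, and H2afy at 86.4 CPM with the nearest at 71.5. Its GC index was 0.200, and its summed level of cortical neuron markers, 9086 CPM, was the highest of all libraries. APP/E4 HFD male 5 was the lowest of its 5 libraries for H1fx at 8.09 CPM, with the nearest at 10.4, and for H2afv at 21.1 CPM, with the nearest at 26.9. Its GC index of -0.572 was the lowest of all libraries.

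H1f0 was at 111 CPM in APP/E3 ND female 4, with the nearest of 7 at 95.8. H3f3b was at 128 CPM in APP/E4 HFD female 4, with the nearest of 7 at 97.02, and this library held 1067 CPM of olfactory markers and 2194 CPM of inhibitory neuron markers. The part of these markers in the values was not tested.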

How the results depend on the processing

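No paired analysis was possible because replicate numbers follow the deposit order and pair no libraries across groups. Of 9 members, H1fx remained the 1 called for genotype in 8 of 9 other settings and in all 52 fits that left out 1 library, and with a GC term 0 were called. That term left 635 of all genes called for genotype, against 1032 in the main fit. For sex, 0 members were called with limma voom, with read class and title style terms, in class 1 alone and with a GC term. In that order, these settings called 808, 32, 129 and 420 of all genes for sex, against 671 in the main fit. Leaving out 1 library gave 0 to 2 members called for sex. The 3 interactions called 0 members in every setting run. The median diet difference of the members stayed between -0.11 and -0.03 over all settings.

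Signs turned only for differences that had not passed, and the cause was not tested. For H1f0 in APP/E4 against APP/E3 the difference was 0.00019 with DESeq2 size factors, 0.0019 with limma voom, 0.0077 with a read class term and 0.026 with a GC term, and H2afx gave 0.036 with the GC term. Between the sexes, read class and title style terms gave -0.045 for H1f0, -0.0057 for H2afv and -0.026 for H3f3b, and H2afy gave 0.0055 with a read class term and 0.0069 in class 1 alone. Leaving out 1 library gave -0.013 to 0.020 for H1f0 and -0.0078 to 0.027 for H3f3b for genotype, and -0.093 to 0.012 for H2afz and -0.016 to 0.014 for H2afy for sex. Classes 2 and 3 hold 1 sex each, so outside class 1 class and sex cannot be told apart. H2afz rested on 5 to 60 counts, with an SE of 0.14. The 95% interval of its difference ran from -0.40 to 0.16 for genotype and from -0.33 to 0.23 for sex. Differences within these intervals were not excluded.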
